A study of Mus musculus with 16 samples.

Results

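The secreted Wnt antagonists are proteins that cells release to hold back Wnt signals. The 10 genes described here were taken by name from the 23284 genes of the expression table: 5 secreted frizzled-related proteins (Sfrp1, Sfrp2, Sfrp4, Sfrp5 and Frzb, also called Sfrp3), 4 of the dickkopf family (Dkk1, Dkk2, Dkk3 and Dkkl1) and Wif1. Messenger RNA of the prefrontal cortex (PFC) was sequenced from 16 mice aged 2 to 3 months, of both sexes, 4 of each of 4 genotypes. APC cKOs carried APC fl/fl, and so lost the major negative regulator of β-catenin (β-cat). β-cat cOEs carried ctnnb1 fl(ex3)/+, whose recombined allele makes a β-cat that resists degradation, with Apc intact. APC/β-cat cKOs carried APC fl/fl and ctnnb1 fl/fl together, and are called double cKOs from here on. All 3 lines used the same CamKIIα-Cre-93 transgene, which acts mainly in forebrain excitatory neurons, while the dissected tissue also holds glia, vessels, meninges and inhibitory neurons. Controls were littermates without Cre, pooled from all the lines, so that Cre itself and the deletions cannot be told apart in any comparison with control. Nothing says that mice were pooled within a library.

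In the canonical pathway a Wnt ligand binds a frizzled receptor and the coreceptor Lrp5 or Lrp6, and β-cat is then spared from a destruction complex that Apc helps to build. The antagonists act upstream of this complex. The frizzled-related proteins and Wif1 bind Wnt ligands outside the cell. Dkk1 and Dkk2 bind the Lrp coreceptors, with the Kremen proteins as further receptors. Dkk3 and Dkkl1 are grouped with this family, but neither is an established Lrp antagonist. Several antagonist genes are themselves known targets of β-cat and its TCF/LEF partners in other tissues, Dkk1 and Wif1 among them. In the adult forebrain Dkk3 is a neuronal transcript, while Sfrp1 and Wif1 are better known from the ventricular wall, the olfactory system and developing tissue.

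To show where such regulation could be read, the 250 bases before the transcript start were searched on both strands for CTTTGAA and CTTTGAT, 7-base forms of the TCF/LEF motif that differ in their last base. Of all 32851 windows of the RefSeq promoter table (GRCm38.p6), 2457 held a match, or 7.48%. Among the members, 7 had an entry (Sfrp2, Frzb, Sfrp5, Dkk1, Dkk2, Dkkl1 and Wif1). Sfrp1, Sfrp4 and Dkk3 had no entry. The Dkk1 window was the 1 member window with a match, 117 bases before the start. It is printed with the window of Wif1, the member with the widest range among the 9 found in every library. Both run 5′ to 3′ on the strand of the gene, Dkk1 at chr19:30549497-30549746 on the minus strand and Wif1 at chr10:121033754-121034003 on the plus strand, and capitals mark the motif.
Dkk1: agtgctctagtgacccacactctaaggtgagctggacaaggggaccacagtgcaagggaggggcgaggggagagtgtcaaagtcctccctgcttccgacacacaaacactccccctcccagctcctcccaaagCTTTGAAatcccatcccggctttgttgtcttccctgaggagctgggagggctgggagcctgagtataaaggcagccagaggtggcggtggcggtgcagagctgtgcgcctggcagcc
Wif1: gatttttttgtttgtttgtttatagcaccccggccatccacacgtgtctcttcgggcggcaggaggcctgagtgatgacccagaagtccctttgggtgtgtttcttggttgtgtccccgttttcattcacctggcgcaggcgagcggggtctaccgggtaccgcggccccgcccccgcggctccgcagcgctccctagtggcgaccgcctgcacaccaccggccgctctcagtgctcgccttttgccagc
The Dkk1 window was 60.8% G and C with 6 CpG dinucleotides, and that of Wif1 62.8% with 21. The starts used are those of RefSeq. GENCODE begins both genes inside these windows, Dkk1 at 30549665 and Wif1 at 121033960, so part of each window lies in the GENCODE gene. A match in such a window is a description of the sequence, and its absence says nothing of sites elsewhere.

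The values are FPKM, fragments scaled by transcript length and by the number mapped, which correct for gene length and so allow levels of different genes to be compared. Depth could not be read from the table, which gives no counts. Between 5726 and 6649 genes were listed at 0 in a library. Apc was at 7.85 to 17.1 FPKM in APC cKOs and 6.80 to 12.2 in double cKOs, below the 38.8 to 50.1 of the other 8 libraries. Ctnnb1, the gene of β-cat, did not mark the double cKOs in this way. Its mean was 155 ± 2.55 FPKM for double cKOs against 160 ± 4.54 for controls, with overlapping ranges. APC cKOs had a mean of 170 ± 10.8 FPKM, and β-cat cOEs one of 160 ± 4.43 (SD, n = 4 each). The raised or reduced β-cat of each line is therefore taken from the study's immunoblots, not from these values. Xist and Y-linked genes marked 2 libraries as female, control replicate 1 and APC cKO replicate 1. The cortical excitatory neuron markers, 10 genes led by Slc17a7 and Camk2a, summed to between 1131 and 1446 FPKM in every library, and none of the 10 was at 0 in all libraries. Striatal projection neuron markers varied more, from 136 to 739 FPKM. In whole tissue, fewer cells of a type and less RNA per cell cannot be told apart.

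In control PFC 1 member stood far above the rest. Dkk3 was at 176 ± 4.15 FPKM (SD, n = 4), higher than 97.5% of the genes above 0 in controls, and made up 77.0% of the summed FPKM of the 10 members. Dkkl1 followed at 26.5 ± 4.58 FPKM, Frzb at 16 ± 1.48 and Sfrp1 at 6.79 ± 1.73 (SD, n = 4 each). The control ranges of these 4 genes did not overlap each other, and Sfrp1 lay above the range of Sfrp4. Below them, Sfrp4 at 1.25 ± 0.473, Wif1 at 0.883 ± 0.297, Sfrp2 at 0.747 ± 0.154, Dkk2 at 0.393 ± 0.106 and Sfrp5 at 0.309 ± 0.268 FPKM (SD, n = 4 each) overlapped from each one to the next, so their order is not settled by these libraries. Dkk1 was listed at 0 in 3 of 4 control libraries.

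**Figure D1:**
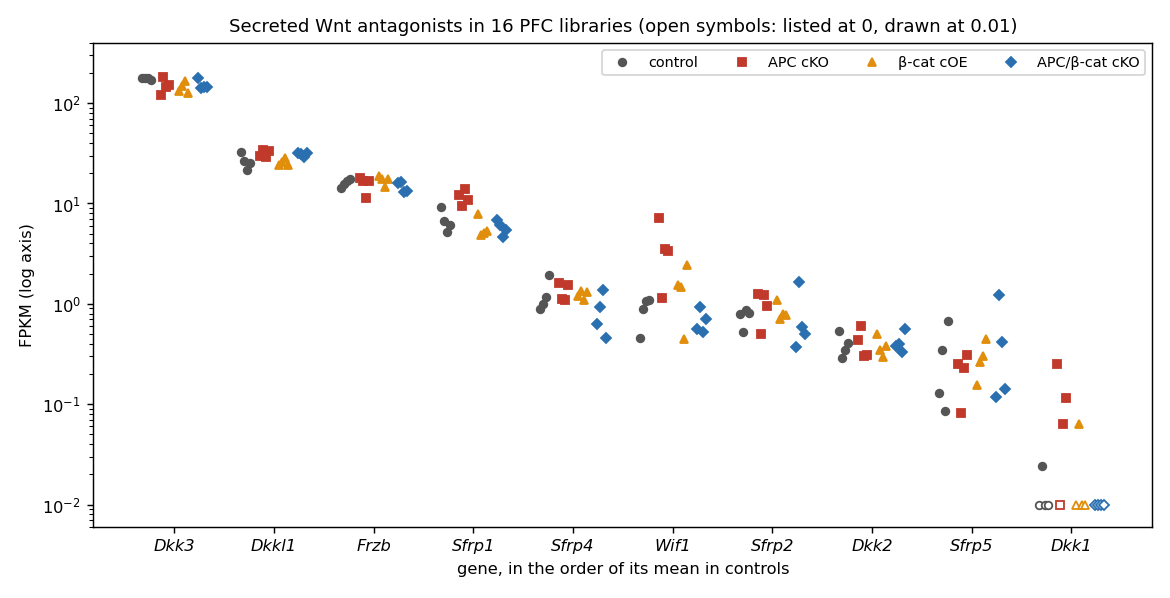
Level of the 10 secreted Wnt antagonists in each of 16 PFC libraries, in FPKM on a log axis, with a symbol for each genotype and open symbols at 0.01 for libraries listed at 0. Dkk3 stays between 121 and 181 FPKM, while Wif1 runs from 0.450 to 7.12 FPKM and Dkk1 is listed at 0 in 11 libraries.

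Across all 16 libraries the abundant members varied least. The highest Dkk3 value was 1.5 times the lowest, that of Dkkl1 1.56 times and that of Frzb 1.68 times. The ratio was 3 for Sfrp1, 4.21 for Sfrp4, 4.43 for Sfrp2, 14.7 for Sfrp5 and 15.8 for Wif1. Dkk2, although low, varied only 2.08 times, from 0.287 to 0.598 FPKM.

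Genotypes were compared on log2(FPKM + 0.1), which understates the change of low genes, and a gene was called at a Benjamini-Hochberg adjusted p under 0.05 in limma over all 13978 genes that averaged at least 0.5 FPKM. Sfrp1, Sfrp2, Sfrp4, Frzb, Dkk3, Dkkl1 and Wif1 passed this filter and the other 3 did not. Against controls 0 of the 7 were called in any line, with limma, where 0.0429% of all genes were called for APC cKOs, 0.0143% for β-cat cOEs and 0.207% for double cKOs. At an unadjusted p under 0.05 the counts were 4 of 7 for APC cKOs (Sfrp1, Dkkl1 and Wif1 higher, Dkk3 lower), 1 for β-cat cOEs (Dkk3, lower) and 1 for double cKOs (Dkkl1, higher). The shares of all genes at that level were 10%, 5.07% and 14.2%. The median log2 difference of the 7 was 0.27 for APC cKOs, 0.04 for β-cat cOEs and -0.21 for double cKOs, beside medians over all genes of -0.0042, -0.0036 and 0.0031. These 3 comparisons share their control libraries.

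Between the lines, 1 of the 7 was called: Sfrp1 was higher in APC cKOs than in double cKOs, a comparison in which 0.215% of all genes were called. The other contrasts called 0 of 7 with limma. They were β-cat cOEs against double cKOs (0.229% of all genes called), APC cKOs against β-cat cOEs (0.0429%), the 2 lines with raised β-cat against both other groups (0.0572%) and the test for a difference anywhere among the genotypes (0.250%). At an unadjusted p under 0.05 the counts in these 5 tests were 3, 2, 3, 3 and 3 of 7, where 10.3%, 11.9%, 7.57%, 8.84% and 12% of all genes reached it. The median log2 difference of the 7 members was 0.44 between APC cKOs and double cKOs, the largest of the 7 contrasts.

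**Figure D2:**
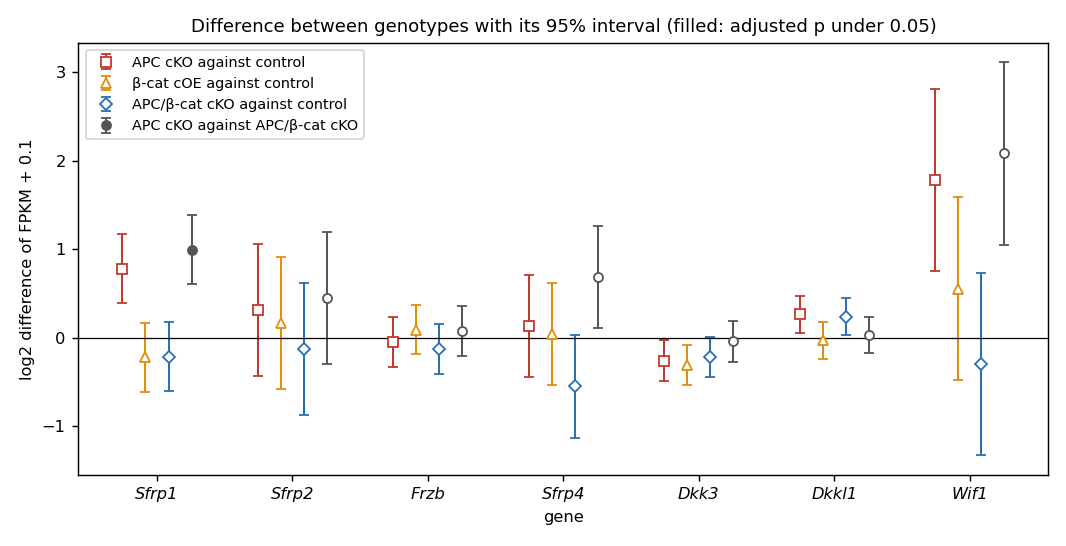
Log2 difference of FPKM + 0.1 for the 7 members that passed the filter, with 95% intervals from limma, in each line against control and in APC cKOs against double cKOs. The 1 filled symbol, for Sfrp1 in APC cKOs against double cKOs at 0.995, marks the only difference with an adjusted p under 0.05.

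Of the frizzled-related proteins, which carry a cysteine-rich domain like that of the receptors, Sfrp1 gave the called difference. It lies on chromosome 8 from 23411502 to 23449632 on the plus strand of mm10, with 3 exons in the GENCODE annotation. In replicates 1 to 4 it was at 12.2, 9.38, 13.9 and 10.9 FPKM in APC cKOs. In controls it was at 9.21, 6.66, 5.15 and 6.16 FPKM. In β-cat cOEs the values were 7.89, 4.82, 5.13 and 5.31 FPKM, and in double cKOs 6.82, 6.14, 4.63 and 5.49. All 4 APC cKO libraries thus lay above the other 12, the nearest being the female control replicate 1 at 9.21 against 9.38 FPKM. The share of all genes that separate genotypes in this way was not counted, for this or any later member.

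The mean of Sfrp1 was 11.6 ± 1.92 FPKM for APC cKOs, 6.79 ± 1.73 for controls, 5.79 ± 1.42 for β-cat cOEs and 5.77 ± 0.936 for double cKOs (SD, n = 4 each). Against double cKOs the log2 difference of APC cKOs was 0.995 (standard error 0.185, limma adjusted p = 0.0396), or 1.99-fold. That adjusted p ran from 0.0088 to 0.150 over the alternatives and was under 0.05 in 13 of 27. It was 0.0734 with sex as a covariate and 0.0641 without both female libraries, while the difference itself stayed between 0.89 and 1.09. Against β-cat cOEs the log2 difference of APC cKOs was 1.0 (95% interval 0.61 to 1.4, limma adjusted p = 0.102). Against controls it was 0.78 (95% interval 0.39 to 1.17, limma adjusted p = 0.248). Without control replicate 1 this last adjusted p was 0.0345. β-cat cOEs and double cKOs gave -0.22 and -0.21 against controls (limma adjusted p = 0.950 and 0.610).

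Sums of marker genes of other cells also differed between these libraries. Deep layer and claustrum neuron markers, of which all 8 had a mean of at least 0.5 FPKM, summed to 89.4 to 95 FPKM for APC cKOs, 56.0 to 89.3 for controls, 60.1 to 83.7 for β-cat cOEs and 72.9 to 80.7 for double cKOs, so here too the APC cKO libraries were above the other 12. Endothelial markers (8 of 8 at that level) summed to 57.0 to 74.1 FPKM in APC cKOs and 73.8 to 92.7 in the others. Oligodendrocyte markers (8 of 8) summed to 701 to 836 FPKM in APC cKOs and 1009 to 1149 in double cKOs. Over the 16 libraries, the log2 level of Sfrp1 followed the deep layer, endothelial and oligodendrocyte sums at Pearson r of 0.57, -0.74 and -0.56. Within genotypes the same r values were 0.13, -0.35 and 0.03. The part of these marker differences in that of Sfrp1 was not tested. None of the genes in these lists was at 0 in all libraries.

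The other frizzled-related proteins did not pass the test in any contrast. Frzb was at 14.2, 15.5, 16.8 and 17.5 FPKM for controls, 18.0, 16.6, 11.2 and 16.7 for APC cKOs, 18.8, 17.4, 14.5 and 17.6 in the β-cat cOEs and 15.9, 16.5, 13.1 and 13.3 in the double cKOs. The groups overlapped throughout, and the 95% intervals of the log2 difference from control were -0.33 to 0.23 for APC cKOs, -0.19 to 0.37 for β-cat cOEs and -0.41 to 0.16 for double cKOs. The ratio of Frzb to Sfrp1 was 2.49 ± 0.743 for controls, 1.39 ± 0.412 for APC cKOs, 3.03 ± 0.543 for β-cat cOEs and 2.56 ± 0.226 for double cKOs (SD, n = 4 each). In APC cKO replicate 3, with the lowest Frzb and the highest Sfrp1, the ratio was 0.808. That library also had the largest striatal projection neuron marker sum, 739 FPKM. The log2 level of Frzb followed this sum at Pearson r of -0.68 over the 16 libraries and -0.72 within genotypes. The part of striatal tissue in the ratio was not tested.

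Sfrp4 was at 0.888, 0.998, 1.18 and 1.94 FPKM for controls, 1.61, 1.12, 1.1 and 1.53 for APC cKOs, and 1.18, 1.34, 1.1 and 1.32 for β-cat cOEs. In double cKOs it was at 0.628, 0.921, 1.37 and 0.460 FPKM, with 2 libraries below every other library of the study. Its log2 difference from double cKOs was 0.68 in APC cKOs, with 0.59 in β-cat cOEs (limma unadjusted p = 0.0235 and 0.0460, adjusted p = 0.413 and 0.411). Against controls it was 0.13, 0.04 and -0.55 in APC cKOs, β-cat cOEs and double cKOs (limma adjusted p = 0.899, 0.993 and 0.371). Meningeal fibroblast markers (11 of 12 genes at a mean of at least 0.5 FPKM) summed to 66.5 to 87.2 FPKM in APC cKOs, 59.2 to 84.0 in β-cat cOEs, 45.9 to 71.5 in double cKOs and 46.2 to 78.6 in controls, and their part in the Sfrp4 values was not tested. Sfrp2 was at 0.520 to 0.860 FPKM for controls, 0.498 to 1.26 for APC cKOs, 0.713 to 1.1 for β-cat cOEs and 0.370 to 1.64 for double cKOs, where replicate 2 alone was above 0.592. Its log2 differences from control were 0.31, 0.16 and -0.13, each with a standard error of 0.35. Sfrp5, below the filter, spread from 0.0826 to 1.22 FPKM, and its highest value was in the same double cKO replicate 2. Exact two-sided permutation tests of Sfrp5 against controls (n = 4 each, smallest possible p = 0.0286) gave p = 0.71, 0.83 and 0.69 in the 3 lines.

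Wif1, a secreted protein with a WIF domain that binds Wnt ligands, had the largest standard error of the 7 tested members, and the largest log2 difference in 6 of the 7 contrasts, the exception being double cKOs against controls, where Sfrp4 led. It lies on chromosome 10 from 121033960 to 121100650 on the plus strand of mm10, with 10 exons. It is on a list of genes that the study picked on these libraries, so its direction here is not independent evidence. In APC cKOs it was at 7.12, 1.14, 3.50 and 3.34 FPKM. In controls it was at 0.459, 0.892, 1.08 and 1.1 FPKM, all below the lowest APC cKO library. In β-cat cOEs the values were 1.55, 1.48, 0.450 and 2.46 FPKM, on both sides of the controls. In double cKOs they were 0.565, 0.940, 0.522 and 0.7 FPKM, within the range of the controls.

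The log2 difference of Wif1 in APC cKOs was 1.78 against controls (95% interval 0.75 to 2.82, limma adjusted p = 0.310) and 2.08 against double cKOs (95% interval 1.05 to 3.11, limma adjusted p = 0.112). Without APC cKO replicate 2 the latter was 2.55 with an adjusted p of 0.0266. Without APC cKO replicate 1 it was 1.70 with an adjusted p of 0.310. Against controls β-cat cOEs gave 0.56 and double cKOs -0.30 (limma adjusted p = 0.950 and 0.811), with standard errors of 0.49. The contrast nearest to that of the study's list, the 2 raised lines against both other groups, gave 1.32 (limma unadjusted p = 0.00149, adjusted p = 0.306).

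**Figure D3:**
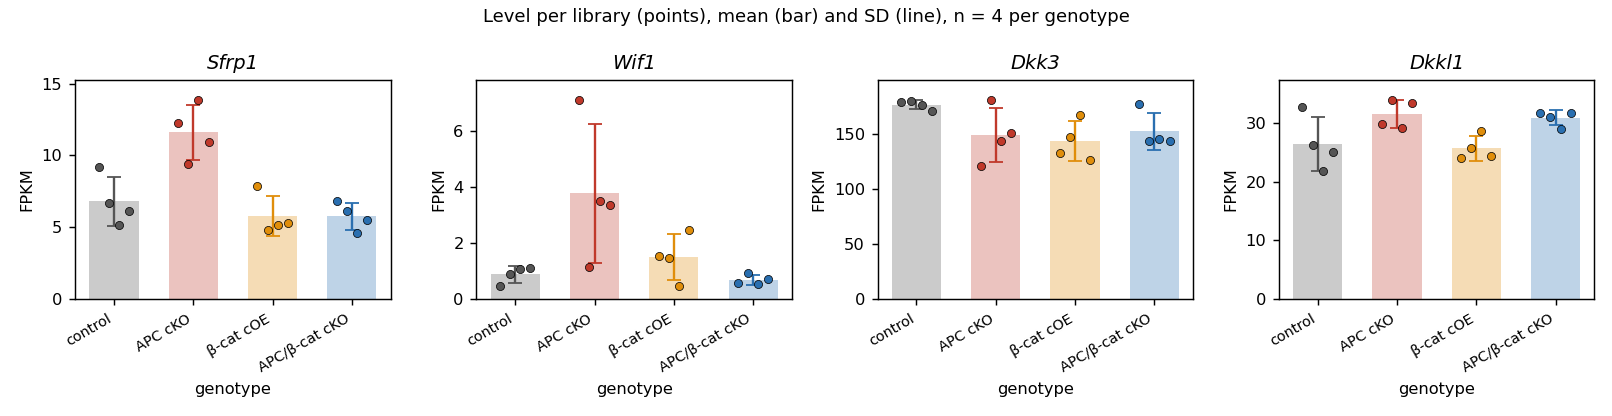
FPKM of Sfrp1, Wif1, Dkk3 and Dkkl1 by genotype, with points for the 4 libraries, bars for the mean and lines for the SD. Sfrp1 is at 9.38 to 13.9 FPKM in APC cKOs and at most 9.21 elsewhere, and the 4 control values of Dkk3 lie close together at 170 to 180 FPKM.

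Sums of markers from the ventricular wall and the olfactory stream also differed between the libraries. The 12 markers of septum and olfactory neuroblasts, all with a mean of at least 0.5 FPKM, include Dlx1, Dlx2, Sp8 and Dcx. Their sum was 231, 91.8, 138 and 126 FPKM in APC cKO replicates 1 to 4, the order of Wif1 in those libraries. It was 78.4 to 126 FPKM in controls, 74.6 to 154 in double cKOs and 75.7 to 162 in β-cat cOEs. Ependymal markers (5 of 6 genes at a mean of at least 0.5 FPKM) summed to 25.2, 7.62, 43.4 and 15.7 FPKM in APC cKOs, 8.04 to 11.2 in controls, 7.69 to 26.3 in double cKOs and 7.46 to 31.2 in β-cat cOEs. Choroid plexus markers (5 of 8) reached 12.5 FPKM in APC cKOs, 7.44 in controls, 10.4 in double cKOs and 8.97 in β-cat cOEs. Over the 16 libraries, the log2 level of Wif1 followed the neuroblast, ependymal and choroid plexus sums at Pearson r of 0.79, 0.68 and 0.72. Within genotypes the same r values were 0.81, 0.65 and 0.71. The part of these cells in the Wif1 difference was not tested.

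**Figure D4:**
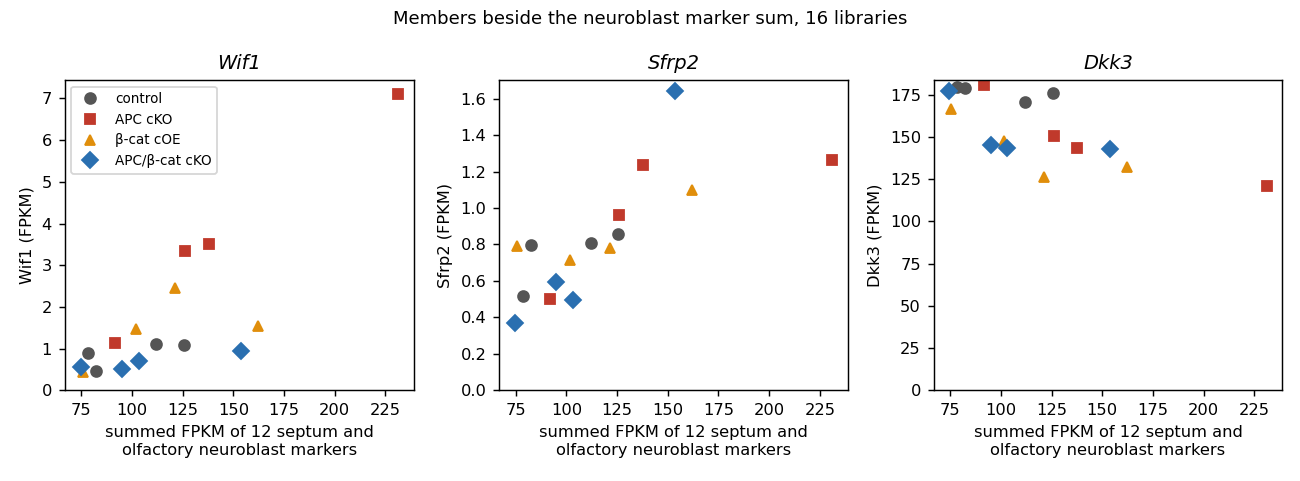
FPKM of Wif1, Sfrp2 and Dkk3 in each of 16 libraries against the summed FPKM of 12 septum and olfactory neuroblast markers, with a symbol for each genotype. The APC cKO library with the largest marker sum, 231 FPKM, has the highest Wif1 (7.12 FPKM) and the lowest Dkk3 (121 FPKM).

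The genes whose log2 levels followed Wif1 most closely over the 16 libraries, among 12900 genes that averaged 1 FPKM or more, were Zic2 (Pearson r = 0.90), Igfbpl1 (0.89) and Notum (0.89). Zic2 is 1 of the neuroblast markers above, and Notum encodes an extracellular enzyme that inactivates Wnt ligands. Those closest to Sfrp2 were St5 (0.89), Dlx2 (0.88) and Fbln2 (0.86), of which Dlx2 is a neuroblast marker too. Those closest to Sfrp1 were Rcan3, Tspan18 and Pcdhb2, each at 0.83, with 0.62, 0.67 and 0.59 within genotypes. These correlations describe likeness over 16 libraries of unknown depth and carry no test.

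In the dickkopf family the leading transcript, Dkk3, lay below the control range in 10 of the 12 libraries that carried Cre, without passing the test. It was at 179, 179.7, 176 and 170 FPKM in controls, which agreed within an SD of 4.15 FPKM. It was at 121, 181, 143 and 151 FPKM for APC cKOs, 132, 147, 167 and 126 in the β-cat cOEs, and 177, 143, 145 and 143 for double cKOs. Each line had a mean between 143 and 152 FPKM, and all 4 β-cat cOE libraries lay below all controls. The log2 differences from control were -0.26 for APC cKOs, -0.31 for β-cat cOEs and -0.22 for double cKOs (limma unadjusted p = 0.0299, 0.0118 and 0.0607, adjusted p = 0.440, 0.946 and 0.371). The Dkk3 share of the summed members was 77.0% ± 1.62 for controls, 69.1% ± 4.6 for APC cKOs, 72.8% ± 2.88 for β-cat cOEs and 73.5% ± 2.1 for double cKOs (SD, n = 4 each).

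The library with 121 FPKM had the largest neuroblast marker sum of the 16, and the cortical excitatory neuron markers summed to 1131 to 1426 FPKM in APC cKOs against 1292 to 1379 in controls. Over the 16 libraries, the log2 level of Dkk3 followed the cortical excitatory and neuroblast sums at Pearson r of 0.77 and -0.76. Within genotypes the same r values were 0.88 and -0.85. The part of tissue composition in the Dkk3 values was not tested. The genes closest to Dkk3 over the 16 libraries were Satb1 (Pearson r = 0.93), Rph3a (0.93), a synaptic vesicle protein, and Cobl (0.91).

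Dkkl1, first known from the testis and early embryo, was at 32.7, 26.3, 21.8 and 25.1 FPKM in controls and 24.1, 25.7, 28.7 and 24.4 in β-cat cOEs. It was at 29.8, 33.9, 29.2 and 33.4 FPKM in APC cKOs and 31.7, 31, 29.1 and 31.8 in double cKOs. The 8 libraries with Apc deleted thus lay above 7 of the 8 with Apc intact, the exception being the female control replicate 1. The log2 difference from control was 0.27 for APC cKOs, -0.03 for β-cat cOEs and 0.24 for double cKOs (limma unadjusted p = 0.0155, 0.769 and 0.0283, adjusted p = 0.384, 0.979 and 0.309). The log2 difference of APC cKOs from β-cat cOEs was 0.30 (limma unadjusted p = 0.0084, adjusted p = 0.468), and that of β-cat cOEs from double cKOs -0.27 (unadjusted p = 0.0155, adjusted p = 0.312). None of these passed the adjusted test. The grouping by Apc state was noticed in the values and was not itself tested.

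Dkk1 and Dkk2, the members that bind the Lrp coreceptors, were barely present. Dkk1 was listed at 0 in 11 of 16 libraries, including all 4 of the double cKOs. It was at 0.249, 0.0631 and 0.115 FPKM in APC cKO replicates 1, 3 and 4, at 0.0630 in β-cat cOE replicate 2 and at 0.0242 in control replicate 2. No fold is given, since the other groups were mostly at 0. The exact two-sided permutation p against controls was 0.143 in APC cKOs and 1 in both other lines (n = 4 each). Dkk2 was at 0.287 to 0.534 FPKM for controls, 0.304 to 0.598 for APC cKOs, 0.297 to 0.501 for β-cat cOEs and 0.328 to 0.559 for double cKOs, and its exact permutation p was 0.83, 0.89 and 0.74 (n = 4 each).

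The rest of the extracellular pathway was read from lists of genes by role. None of their genes was called with limma in any of the 7 contrasts between genotypes. Counts at an unadjusted p under 0.05 stand beside the 10%, 5.07% and 14.2% of all genes that reached it in APC cKOs, β-cat cOEs and double cKOs. At that level, the other extracellular inhibitors (6 genes tested) gave 1 higher and 1 lower in APC cKOs and 0 in both other lines. The higher gene was Notum, at a log2 difference of 1.02 in APC cKOs (limma unadjusted p = 0.0105, adjusted p = 0.358). Notum was at 0.44 in β-cat cOEs and -0.01 in double cKOs (limma adjusted p = 0.950 and 0.992). Igfbp4, a secreted protein that can bind frizzled and Lrp6, had the largest moderated t in each line, at -0.45, -0.24 and -0.1 on the log2 scale in APC cKOs, β-cat cOEs and double cKOs (limma adjusted p = 0.310, 0.946 and 0.701). Of 12 Wnt ligands tested, 2 were higher in APC cKOs at that unadjusted level, 0 differed in β-cat cOEs and 1 was lower in double cKOs. Wnt6 led the first list at 0.99 (limma unadjusted p = 0.00766, adjusted p = 0.332) and stood at 0.66 in β-cat cOEs (adjusted p = 0.946), and Wnt2b led the last at -0.52 (unadjusted p = 0.0309, adjusted p = 0.316).

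Of 14 Wnt receptors and coreceptors tested, 4 were higher in APC cKOs at an unadjusted p under 0.05. The count was 1 higher in β-cat cOEs, and 1 higher and 1 lower in double cKOs. Fzd6 had the largest moderated t in APC cKOs and in double cKOs, at 0.60 and 0.55, and was at 0.42 in β-cat cOEs (limma adjusted p = 0.367, 0.289 and 0.946). Fzd8 led in β-cat cOEs, at 0.38 (limma adjusted p = 0.946). Among the receptors of the dickkopf proteins, of which 3 were tested, Kremen1 was at 0.29 in APC cKOs, with 0.08 in β-cat cOEs, and Lrp6 at -0.21 for double cKOs (limma adjusted p = 0.332, 0.963 and 0.407). In the R-spondin axis, which sustains frizzled receptors at the surface, 1 of 7 tested genes was lower in β-cat cOEs, Rspo2 at -0.40 (limma unadjusted p = 0.0224, adjusted p = 0.946), and 0 reached that level in the other lines, where Rspo2 was at -0.28 and -0.26.

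Of 11 Wnt feedback and target genes tested, 2 were higher in APC cKOs at an unadjusted p under 0.05, 0 differed in β-cat cOEs, and 1 was higher and 1 lower in double cKOs. Their median log2 difference was 0.21, 0.05 and 0.02. Axin2, the feedback inhibitor inside the cell, led in APC cKOs at 0.32 (standard error 0.114, limma adjusted p = 0.371), and against double cKOs it was at 0.47 (adjusted p = 0.129). In β-cat cOEs the largest moderated t was that of Tnfrsf19, at 0.07 (limma adjusted p = 0.950). Ccnd1, the cyclin D1 gene, was at 0.64 in double cKOs against controls (limma adjusted p = 0.168). Beside these, the log2 difference of Sfrp1 between APC cKOs and double cKOs, at 0.995, was the 1 that passed the adjusted test.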

How the data were processed

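RNA of the prefrontal cortex of 16 mice was sequenced by the authors as paired ends after TruSeq stranded mRNA preparation. Per the labels, TopHat2 2.0.10, Cuffdiff 2.1.1 and mm10 were named in the submitters' processing notes. The deposited values are FPKM that the authors put on a log scale not stated in the sources, here taken as log2. They were read as log2(FPKM + 1) because FPKM times gene length then summed to 592239 to 627186 per library, against over 5.28e+06 for natural logs, and were turned back into FPKM. The plan had assumed FPKM. All value columns were used, and genotypes came from the labels. Nothing says that libraries are from separate litters, and p-values measure the spread between these libraries.

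The test was limma 3.58.1 in R 4.3.3 (lmFit, contrasts.fit, eBayes with a trend) on log2(FPKM + 0.1), over the 13978 genes that averaged at least 0.5 FPKM, with 1 fit of all 16 libraries and 12 residual degrees of freedom. It was tested on simulated data first. Adjusted p-values are Benjamini-Hochberg over all genes tested. Members below the filter had exact two-sided permutation tests over 70 regroupings. Figures and descriptions used Python 3.11.15, pandas 2.3.3 and matplotlib 3.10.9. Positions came from GENCODE for mm10, promoters from RefSeq.

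The members, lists and markers were chosen with earlier results of these data known. Named genes are the members, the gene of each pathway list with the largest moderated t against control in each line, and the 3 genes most correlated with each tested member. For Frzb, Sfrp4 and Dkkl1 these last were Cobll1, Hdac9 and Atp1b2, then Swap70, Cald1 and Sike1, then Bnip3l, Pcdhb7 and Lcp1, at r of 0.80 to 0.86. Alternatives were another pseudocount, filter, scaling or trend, sex as a covariate, a replicate block, only the groups compared, an unadjusted p, and leaving out each library. Depth is unknown and no interval rests on counts.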

Additional observations from a re-analysis of the deposited data

Results flagged for a closer look

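With 4 libraries a group, a value was singled out when its gap to the next exceeded Dixon's 95% limit for 4 values, as a share of the whole range of the group. Of 40 groups examined, 4 passed this limit, and chance alone gives about 2. Sfrp1 in β-cat cOE replicate 1, at 7.89 FPKM, stood apart from the other 3 at 4.82 to 5.31 FPKM, with a gap of 0.841 of the range. Dkk3 in double cKO replicate 1, at 177 FPKM, stood apart from 143 to 145 FPKM, with a gap of 0.934. Dkk1 was above 0 in 1 library each of the controls (replicate 2, 0.0242 FPKM) and of the β-cat cOEs (replicate 2, 0.0630 FPKM), where the gap is the whole range, a ratio of 1. A group with a single library above 0 always passes, so these do not bear on the chance number. The Dkk1 group at 0 throughout could not pass, though it is among the 40.

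Sfrp1 differed between APC cKOs and double cKOs, which both carried APC fl/fl with Cre, but the call depended on the processing. APC cKOs exceeded double cKOs by a log2 difference of 0.995 (limma adjusted p = 0.0396), tested directly between the lines. The adjusted p was under 0.05 in 13 of 27 alternatives, and was 0.0734 with sex as a covariate and 0.0732 with only the groups compared. All 4 APC cKO libraries were above all 4 double cKO libraries, and the share of all genes for which this holds was not counted. The cause was not tested.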

How the results depend on the processing

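Of 879 alternative values for 32 limma differences of single members, 833 kept their direction and their side of the threshold, 14 lost the call, 21 gained one and 11 turned direction. With an adjusted p, Sfrp1 in APC cKOs gained 1 against controls and 3 against β-cat cOEs. Wif1 in APC cKOs gained 1 against double cKOs. The rest of the gains came from using an unadjusted p, which those differences already met in the main fit. All 14 losses were of Sfrp1 in APC cKOs against double cKOs, whose call thus rests on the settings and libraries used. The count of called members there fell from 1 to 0 with no filter, quantile normalization, no trend, sex as a covariate or only the groups compared, and also without both female libraries, a setting added after seeing the data. Leaving out each library in turn gave 0 to 2 there: 0 without APC cKO replicate 1, 3 or 4, double cKO replicate 2, 3 or 4, control replicate 2 or β-cat cOE replicate 4, and 2, with Wif1, without APC cKO replicate 2. The range was 0 to 1 for APC cKOs against control (1 without control replicate 1) and against β-cat cOEs (1 without control or β-cat cOE replicate 1), and 0 to 1 for any difference (1 without APC cKO replicate 2, control replicate 1 or β-cat cOE replicate 1). An unadjusted p gave 4, 1, 1, 3, 2, 3, 3 and 3 called members in the 8 tests, in the order of the report. A pseudocount of 1 FPKM gave 1 for any difference. A replicate block by the number in the title changed no count of called members. A block by the order of the columns, added after seeing the data, gave 1 for APC cKOs against β-cat cOEs and 1 for any difference. Whether the numbers pair the libraries was not settled. By title, 4 of 21 same-numbered pairs of different genotype correlated above 0.1 (median -0.069), beside 13 of 75 differently numbered pairs (median 0.0053). By column order the counts were 5 of 24 and 12 of 72. Such correlations cannot exclude a pairing. With the block by column order, Sfrp1 in APC cKOs against double cKOs had a limma adjusted p of 0.0088.

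Some differences turned sign. Against control, Sfrp4 in APC cKOs was -0.0897 without both female libraries. Sfrp4 in β-cat cOEs was -0.0217 with quantile normalization and -0.0923 without both female libraries. Dkkl1 in β-cat cOEs was 0.0106 with sex as a covariate and 0.0772 without both female libraries. Sfrp5 in β-cat cOEs was -0.00237 with a pseudocount of 1. With each library left out, Sfrp2 in double cKOs ran from -0.529 to 0.101, Frzb in APC cKOs from -0.127 to 0.0998, and in β-cat cOEs Sfrp4 from -0.0923 to 0.256 and Dkkl1 from -0.118 to 0.0772. Of 72 such values for the 3 members below the filter, 14 had the other sign. Sfrp5 ran from -0.498 to 0.188 in APC cKOs and from -0.214 to 0.701 in double cKOs. The causes were not tested. A filter of 2 FPKM leaves out Sfrp2, Sfrp4 and Wif1. Depth is unknown, so no value of Dkk1 at 0 can be read as absence.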

Other observations

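Without Dkk3, the other 9 members summed to 65.7 ± 4.55 FPKM in APC cKOs, 52.9 ± 4.83 in controls, 52.8 ± 1.75 in β-cat cOEs and 54.5 ± 3.89 in double cKOs (SD, n = 4 each). The APC cKO libraries ran from 60.7 to 71.0 FPKM and the controls from 47.3 to 58.9. The difference in this sum was not tested, and the share of other gene sums that separate in this way was not counted. Sfrp1 made up 17.8% ± 3.54 of this sum in APC cKOs, 12.7% ± 2.12 in controls, 10.9% ± 2.28 in β-cat cOEs and 10.5% ± 1.16 in double cKOs. Dkkl1 and Frzb, the most abundant of the 9, make up most of the rest.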
